A study of Mus musculus with 16 samples.

Results

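Prostanoid synthesis and receptor genes are followed here through glomerular RNA: the cyclooxygenases Ptgs1 and Ptgs2, the terminal synthases Ptges, Ptgis, Ptgds and Tbxas1, and the prostaglandin E2 receptors Ptger1, Ptger3 and Ptger4. They were chosen by name, as 9 of the 25791 gene symbols in the deposited table, and all 9 passed the filter on low values. Glomeruli had been collected by iron perfusion and a magnet from mice of the genotype eNOS-/-//db/db, a cross of the db mutation of the leptin receptor with loss of endothelial nitric oxide synthase that serves as a mouse model of diabetic nephropathy. The RAAS-blocked group (7 libraries) had received losartan (30 mg/day), which blocks the type 1 receptor of angiotensin II, together with lisinopril (20 mg/day), an inhibitor of angiotensin-converting enzyme, in the water they drank from week 10 to 12 of life up to week 26. The untreated group (9 libraries) had the same genotype and was taken to be of the same age, since the labels give no age for single samples. Both groups were therefore diabetic and lacked the nitric oxide synthase, and mice without diabetes were not analysed here.

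Prostanoids are made from arachidonic acid, which phospholipase A2 frees from membranes. Cyclooxygenases turn it into prostaglandin H2, and terminal synthases turn that into prostaglandin E2, prostacyclin, prostaglandin D2 or thromboxane A2, each of which acts on receptors of its own. In the kidney, Ptgs2 (COX-2) of the macula densa and the neighbouring thick ascending limb is known for its part in the release of renin, the enzyme encoded by Ren1, from cells of the afferent arteriole. Ptgs2 is also known as an early induced gene of inflammation, made by macrophages and neutrophils. Values are FPKM, fragment numbers scaled to the length of the transcript and the size of the library. Differences are those of log2(FPKM + 1), RAAS-blocked minus untreated, a scale that understates the change of low genes.

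The promoters of both cyclooxygenase genes are shown because Ptgs1 is known as the constitutive and Ptgs2 as the inducible form. The sequences are RefSeq's, on build GRCm38.p6, each with the 250 bases before the gene's start on the plus strand, at chr1:150099781-150100030 for Ptgs2 and chr2:36230176-36230425 for Ptgs1. The build behind the deposited values is not given in the sources used here. Of the 9 genes, 7 had a promoter entry. Capitals mark TTGCGCAA, a palindrome that C/EBP factors are known to bind.
Ptgs2 upstream: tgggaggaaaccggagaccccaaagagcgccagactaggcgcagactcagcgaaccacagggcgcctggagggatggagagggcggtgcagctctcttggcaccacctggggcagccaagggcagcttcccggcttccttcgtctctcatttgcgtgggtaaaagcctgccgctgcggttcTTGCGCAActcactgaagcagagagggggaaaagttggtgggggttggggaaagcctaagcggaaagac
Ptgs1 upstream: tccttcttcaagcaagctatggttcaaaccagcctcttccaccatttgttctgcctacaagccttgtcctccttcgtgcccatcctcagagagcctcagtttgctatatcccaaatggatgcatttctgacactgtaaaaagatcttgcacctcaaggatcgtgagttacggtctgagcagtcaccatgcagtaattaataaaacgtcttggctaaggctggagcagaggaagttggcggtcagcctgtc
The motif TTGCGCAA was found in 0.183% of the 32851 promoter windows of 300 bases that were searched on both strands. Searched in the same way were the cyclic AMP response element TGACGTCA, which 1.79% of windows held, the TATA box TATAAA, which 13.6% held, and the motifs shown next. The Ptgs1 stretch held none of them. Just after the Ptgs2 start, at chr1:150100033-150100061 on the plus strand, capitals mark TGACGTA, a variant cyclic AMP response element read on the minus strand. They also mark an E-box, CACGTG, that overlaps it.
Ptgs2 site after start: agtcaccacTACGTCACGTGgagtccgct
The variant element was found in 1.27% and the E-box in 7.15% of all windows. These matches describe letters only, and no binding was measured in these libraries.

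The libraries differed in ways that bear on these genes. Absolute depth is unknown, since FPKM keeps no counts; RAAS-blocked replicate 4 had 16919 symbols above 0 and the other 15 libraries had 17993 to 18613. Ren1, which rises with blockade of the angiotensin receptor or converting enzyme in mice, was at 33.5 FPKM in RAAS-blocked replicate 4 and at 443 to 1584 FPKM in the other 6 RAAS-blocked libraries, against 6.92 to 263 FPKM in untreated libraries. RAAS-blocked replicate 4 thus lay inside the untreated range, and differences and relations that it moved by over 1.5 times are given also without it. Tubule content varied: the summed level of 5 thick ascending limb markers ran from 252 to 1226 FPKM in RAAS-blocked and from 333 to 2191 FPKM in untreated libraries, and that of 5 collecting duct markers from 48.5 to 738 FPKM and from 79.0 to 780 FPKM. The number in the labels' description field falls into 2 consecutive runs, neither of which holds both groups, so whatever else differed between the runs cannot be told apart from the drugs.

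None of the 9 genes passed the test of a difference between RAAS-blocked and untreated glomeruli, and the values of the groups overlapped for each. With limma on 13286 genes, 2 genes were called at an adjusted p under 0.05, a share of 0.0151%, and 0 of the 9 were among them. None of the 9 passed at an unadjusted p under 0.05 either, where 814 genes (6.13%) did, and the exact Wilcoxon test called 0 genes after adjustment. The estimated difference was above 0 for 3 and below 0 for 6 of the 9, with a median of -0.10 against -0.02 over all genes tested. Of all genes tested, 44.7% had a difference above 0. Fitted without RAAS-blocked replicate 4, the model called 6 genes (0.0452%) and again 0 of the 9. In bulk RNA, fewer cells of a type and less RNA per cell cannot be told apart.

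**Figure D1:**
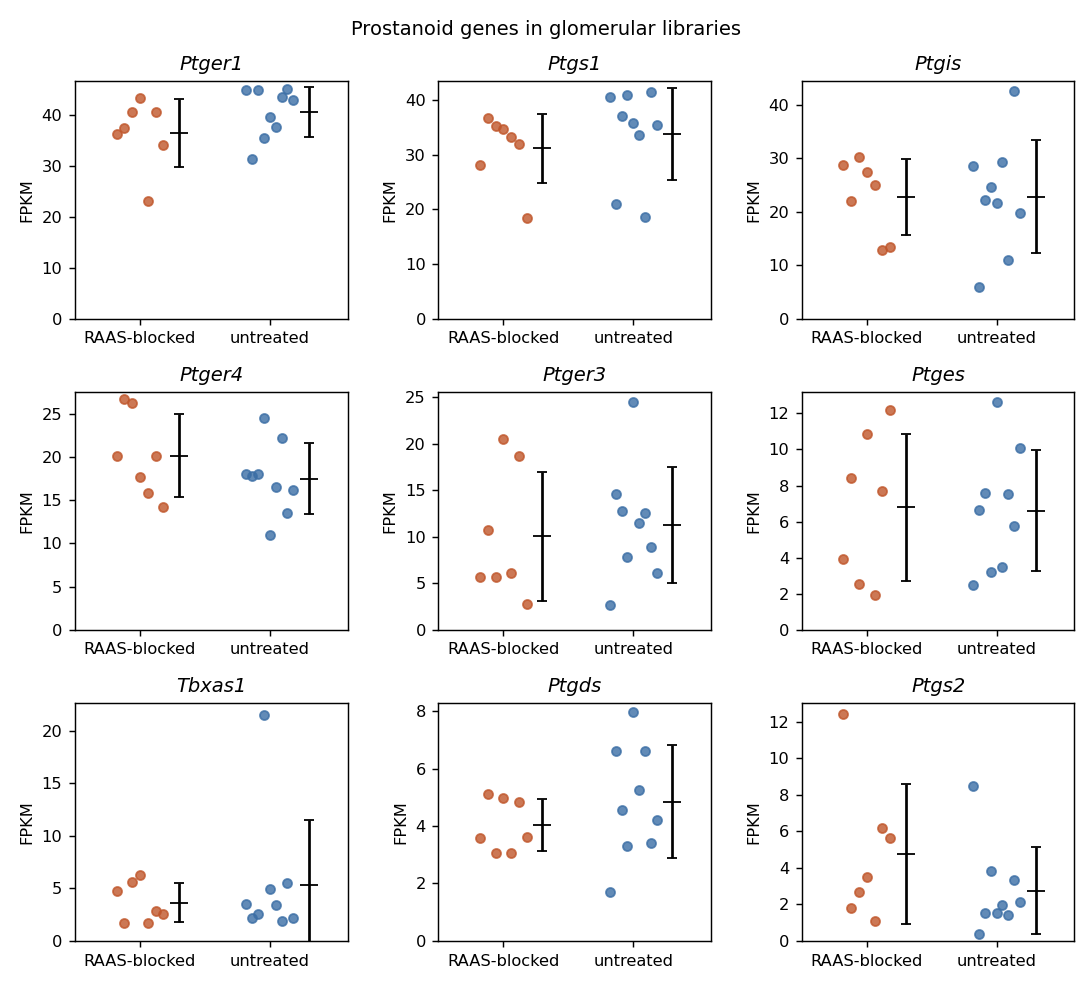
FPKM of each gene in 7 RAAS-blocked and 9 untreated glomerular libraries, ordered by mean level, with the group mean and SD beside the points (an SD bar that passes below 0 is cut at the axis). The groups overlap for all 9 genes, and single high libraries stand out for Ptgs2 (12.4 and 8.46 FPKM) and Tbxas1 (21.5 FPKM).

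Of the cyclooxygenases, Ptgs1 (COX-1) was at 18.3, 33.3 and 36.7 FPKM (lowest, median and highest) in RAAS-blocked libraries, against 18.6, 35.9 and 41.5 FPKM in untreated libraries. The groups overlapped over nearly their whole range, and the difference was -0.10 ± 0.18 (SE; limma adjusted p = 0.955). Its lowest RAAS-blocked value, in replicate 6, lay apart from the other 6, at 28.1 to 36.7 FPKM, and without that library the difference was 0.02.

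Ptgs2 was the most variable of the pair. It was at 1.12, 3.50 and 12.4 FPKM in RAAS-blocked libraries, against 0.394, 1.99 and 8.46 FPKM in untreated libraries. RAAS-blocked replicate 0 and untreated replicate 0 were the highest of their groups, and 5 of 7 RAAS-blocked libraries lay above the untreated median. The mean was 4.76 ± 3.85 FPKM (SD, n = 7) in RAAS-blocked libraries and 2.74 ± 2.38 FPKM (n = 9) in untreated libraries, and without the highest library of each group 3.49 ± 2.05 (n = 6) and 2.02 ± 1.11 FPKM (n = 8). The difference of 0.58 ± 0.39 had a 95% interval of -0.26 to 1.41 and did not pass (limma adjusted p = 0.881); without RAAS-blocked replicate 4 it was 0.78 (adjusted p = 0.720). The SD of log2(FPKM + 1) was 0.90 in RAAS-blocked and 0.78 in untreated libraries for Ptgs2, against 0.33 and 0.41 for Ptgs1.

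Among the terminal synthases, Ptges, the inducible microsomal prostaglandin E synthase, was at 1.91, 7.68 and 12.2 FPKM in RAAS-blocked libraries, against 2.48, 6.66 and 12.6 FPKM in untreated libraries. Ptgis, prostacyclin synthase, was at 12.9, 25.1 and 30.2 FPKM in RAAS-blocked libraries, against 5.97, 22.2 and 42.6 FPKM in untreated libraries. In both genes the ranges overlapped, and the differences were -0.04 ± 0.36 for Ptges and 0.10 ± 0.32 for Ptgis (limma adjusted p = 0.990 and 0.973). They were 0.16 for Ptges and 0.06 for Ptgis without RAAS-blocked replicate 4.

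Ptgds, which makes prostaglandin D2, was at 3.06, 3.60 and 5.10 FPKM in RAAS-blocked libraries, against 1.70, 4.57 and 7.96 FPKM in untreated libraries. The untreated values enclosed the RAAS-blocked ones, with a difference of -0.15 ± 0.21 (limma adjusted p = 0.934). Tbxas1, thromboxane A synthase, was at 1.71, 2.82 and 6.26 FPKM in RAAS-blocked libraries, against 1.93, 3.43 and 21.5 FPKM in untreated libraries. Its highest value came from untreated replicate 3; without that library the untreated mean was 3.29 ± 1.34 FPKM (n = 8), and the difference of -0.21 ± 0.37 (limma adjusted p = 0.955) became 0.07, and without RAAS-blocked replicate 4 it was -0.09.

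The receptors for prostaglandin E2 differ in how they signal. Ptger4 encodes EP4, which raises cyclic AMP, Ptger3 encodes EP3, which lowers it, and Ptger1 encodes EP1, which raises calcium. Ptger4 was at 14.3, 20.1 and 26.7 FPKM in RAAS-blocked libraries, against 10.9, 17.8 and 24.5 FPKM in untreated libraries, a difference of 0.19 ± 0.16 (limma adjusted p = 0.901). Ptger3 was at 2.76, 6.14 and 20.5 FPKM in RAAS-blocked libraries, against 2.64, 11.5 and 24.5 FPKM in untreated libraries, a difference of -0.22 ± 0.40 (limma adjusted p = 0.954). Without RAAS-blocked replicate 6 the Ptger3 difference was -0.0068, and without RAAS-blocked replicate 3 it was -0.43. Ptger3 spread over a wide range in both groups, while Ptger4 had an SD of 0.33 on the log2 scale in each.

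Ptger1 was at 23.2, 37.4 and 43.3 FPKM in RAAS-blocked libraries, against 31.4, 43.0 and 45.2 FPKM in untreated libraries, a difference of -0.16 ± 0.11 (limma adjusted p = 0.882). RAAS-blocked replicate 4 was its lowest library, and without it the difference was -0.06. Its values are uncertain, because the labels do not say whether counting used strand, and reads from overlapping transcripts of opposite strands cannot then be told apart.

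**Figure D2:**
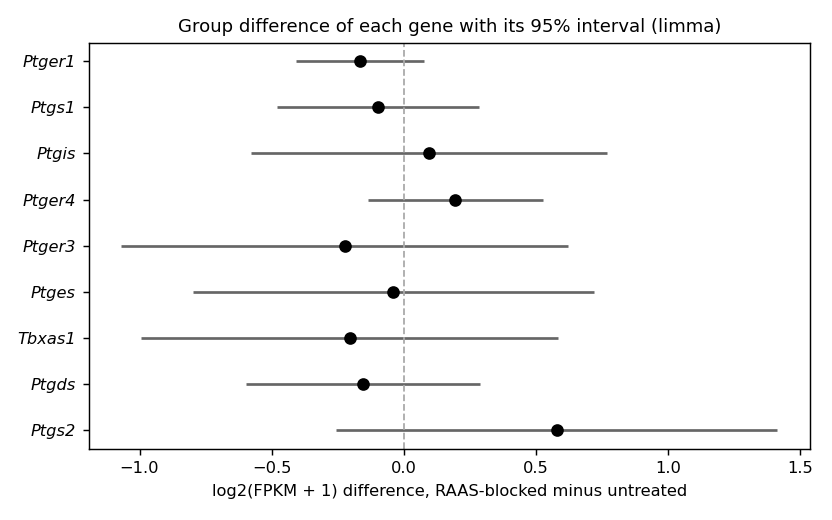
Difference of log2(FPKM + 1), RAAS-blocked minus untreated, with its 95% interval for each gene in the order of mean level. All 9 intervals include 0, and the highest upper bound is that of Ptgs2, at 1.41.

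Since FPKM is per length, the levels of the genes can be set side by side. By mean FPKM over the 16 libraries the order was Ptger1 (38.8), Ptgs1 (32.7), Ptgis (22.8), Ptger4 (18.7), Ptger3 (10.7), Ptges (6.68), Tbxas1 (4.58), Ptgds (4.49) and Ptgs2 (3.62). Of 8 neighbouring pairs, compared inside libraries by an exact two-sided sign-flip test, 4 differed after adjustment. The pairs were set by the order of these same values, so the test describes only how steady that order was between libraries. Ptger1 lay above Ptgs1 (adjusted p = 0.0297), Ptgs1 above Ptgis (0.000977), Ptger4 above Ptger3 (0.0072) and Ptger3 above Ptges (0.0335), each in 14 of 16 libraries. Ptgis and Ptger4 (0.366), Ptges and Tbxas1 (0.130), Tbxas1 and Ptgds (0.493) and Ptgds and Ptgs2 (0.195) did not differ beyond their spread. Tbxas1 lay above Ptgds in only 6 of 16 libraries. By median FPKM Ptgds came before Tbxas1 and 5 pairs passed, with Ptges above Ptgds (sign-flip adjusted p = 0.0268). The place of Ptger1 carries the uncertainty of its counting.

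Of 35 other prostanoid genes listed, 34 were in the table and 19 passed the filter, and 0 of these 19 were called between the groups. Their median difference was -0.07, with 6 above 0, against 44.7% of all genes tested. At an unadjusted limma p under 0.05, 3 of the 19 passed, against 6.13% of all genes. Tbxa2r, the thromboxane A2 receptor, had the lowest p. It was at 20.7, 23.1 and 28.8 FPKM in RAAS-blocked libraries, against 24.8, 34.8 and 55.3 FPKM in untreated libraries. Of the untreated libraries only replicate 1 lay inside the RAAS-blocked range. Its difference of -0.56 ± 0.13 did not pass in limma (adjusted p = 0.303; 0.181 to 0.626 when each library was left out in turn). The next 5 by p were Ptges3, the cytosolic prostaglandin E synthase (0.22 ± 0.08), Pla2g4a, the cytosolic phospholipase A2 (0.49 ± 0.22), Ptgir, the prostacyclin receptor (0.44 ± 0.21), Abcc4, a prostaglandin exporter (-0.26 ± 0.13), and Pla2g12a, a secreted phospholipase A2 (-0.14 ± 0.09), with limma adjusted p of 0.716 to 0.867, and Pla2g12a had -0.07 without RAAS-blocked replicate 4. Ptger2, the EP2 receptor, did not pass the filter, at up to 0.552 FPKM in RAAS-blocked and 0.718 FPKM in untreated libraries.

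Ren1 itself differed by 3.85 ± 0.76 and was not called (limma adjusted p = 0.218; 4.56 ± 0.55 and adjusted p = 0.0038 without RAAS-blocked replicate 4). Of the RAAS-blocked libraries, 6 of 7 lay above every untreated one, so the relation of Ptgs2 to Ren1 was read inside each group. Both genes were lowest in the same libraries, RAAS-blocked replicate 4 (1.12 FPKM of Ptgs2 and 33.5 FPKM of Ren1) and untreated replicate 1 (0.394 and 6.92 FPKM). In the 7 RAAS-blocked libraries r was 0.72 (exact permutation p = 0.0691) and rho 0.71 (p = 0.0881). In the 9 untreated libraries r was 0.64 (exact permutation p = 0.0595) and rho 0.60 (p = 0.0968). Without the 2 libraries farthest from the median of Ren1, r was 0.64 (exact permutation p = 0.292) and 0.43 (p = 0.33), so neither relation passed the threshold. Without RAAS-blocked replicate 4 alone r was 0.62 (exact permutation p = 0.190), and without untreated replicate 1 alone 0.39 (p = 0.26).

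Ptgs2 also was not always highest where Ren1 was. Untreated replicate 0 held 8.46 FPKM of Ptgs2 with 59.9 FPKM of Ren1, while RAAS-blocked replicate 1 held 1.81 FPKM of Ptgs2 with 765 FPKM of Ren1. Of 18 relations of the 9 genes with Ren1 inside the groups, 0 passed after adjustment (0.306 for Ptgs2 in both groups), and 2 passed unadjusted. These were Ptges in RAAS-blocked libraries (r = 0.75, rho = 0.68, exact permutation p = 0.0147, adjusted 0.264) and Tbxas1 in untreated libraries (r = 0.78, rho = 0.48, exact permutation p = 0.0319, adjusted 0.287). Without the 2 libraries farthest from the median of Ren1, r was 0.03 for Ptges and 0.21 for Tbxas1, so both rested on those libraries. Without RAAS-blocked replicate 4 alone Ptges had r = 0.65 (exact permutation p = 0.142), and without untreated replicate 3 alone Tbxas1 had r = 0.39 (p = 0.375). Ptger1 had r = 0.86 in RAAS-blocked libraries (exact permutation p = 0.0851), and -0.10 without replicate 4.

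**Figure D3:**
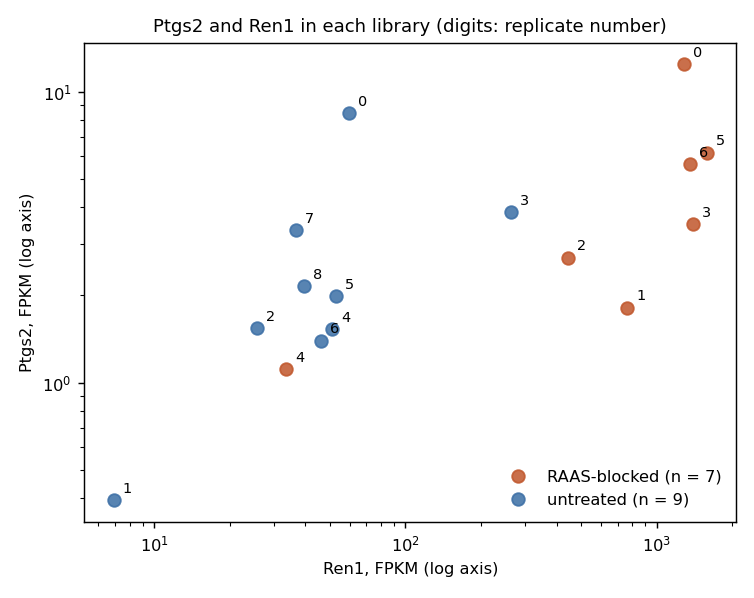
Ptgs2 against Ren1 in FPKM, both axes logarithmic, with 1 point per library and its replicate number. RAAS-blocked libraries run from 33.5 to 1584 FPKM of Ren1 and untreated ones from 6.92 to 263 FPKM, and the lowest Ren1 of each group comes with the lowest Ptgs2 of that group.

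A fit over all libraries with group and log2 Ren1 as terms gave the change of each gene per doubling of Ren1 + 1. Ptgs2 had 0.35 ± 0.10 (95% interval 0.14 to 0.56; limma adjusted p = 0.0661) and ranked 585 of 13285 genes by p. The fit called 333 genes (2.51%) and 0 of the 9, and 2963 genes (22.3%) and 3 of the 9 at an unadjusted p under 0.05: Ptgs2, Ptger1 (0.09 ± 0.03, adjusted p = 0.118) and Tbxas1 (0.28 ± 0.10, adjusted p = 0.127). Akr1b7, which encodes an aldo-keto reductase of renin-producing cells, ranked 1, with 0.48 ± 0.05 (limma adjusted p = 0.00118). The number of calls depended on single libraries: without RAAS-blocked replicate 4 it was 0, without each other library in turn 61 (RAAS-blocked replicate 3) to 662 (untreated replicate 1), and with array weights 1. Without RAAS-blocked replicate 4, Ptgs2 had 0.43 (limma adjusted p = 0.447), Ptger1 0.01 (0.921) and Tbxas1 0.44 (0.447). With untreated replicate 0 left out, Ptgs2 was called (limma adjusted p = 0.0497, with 1.9% of genes called). Without untreated replicate 3, Ptger1 had 0.13 (limma adjusted p = 0.0394, with 1.93% of genes called) and Tbxas1 0.14 (0.364). With a pseudocount of 0.1, Ptgs2 had 0.50 (limma adjusted p = 0.0451, with 2.87% of genes called), and with thick ascending limb level as a term 0.35 (0.0277, with 7.02%). Over the 8 settings that kept all libraries, Ptgs2 had 0.18 to 0.50, with limma adjusted p of 0.0277 to 0.406. No gene was called for a difference in this slope between the groups, and Ptgs2 had an adjusted p of 0.899 in that limma test.

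Of 10 genes of macula densa and renin cell signalling, 8 passed the filter and 0 were called between the groups. Akr1b7 was at 2.70, 21.2 and 31.0 FPKM in RAAS-blocked libraries, against 3.26, 7.03 and 16.8 FPKM in untreated libraries, a difference of 1.32 ± 0.40 (limma adjusted p = 0.613). Its lowest RAAS-blocked value was again that of replicate 4, and it was the gene of this list called without that library (1.71 ± 0.26, limma adjusted p = 0.0349). Of 3 macula densa markers, 1 passed the filter. Nos1 did not pass, with medians of 0.383 FPKM in RAAS-blocked and 0.477 FPKM in untreated libraries. Pappa2 did not pass either, with medians of 0.386 and 0.683 FPKM. Avpr1a passed, and its median was higher in RAAS-blocked (7.15 FPKM) than in untreated libraries (4.53 FPKM), with overlapping ranges. Slc12a1, the sodium-potassium-chloride cotransporter of the thick ascending limb, was at 33.4 to 240 FPKM in RAAS-blocked and 34.7 to 288 FPKM in untreated libraries.

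Each gene was then set against 13 lists of cell type markers over the 16 libraries. Of 117 relations, 22 passed after adjustment, with a different list at the top for most genes. Both values of a point come from the same library, and the part of tissue content in these relations was not tested. Ptges followed the collecting duct markers, with r = 0.95, rho = 0.95 and permutation p = 1e-05, the smallest that 100000 resamples can give (adjusted p = 0.000293). Its r was 0.98 in RAAS-blocked and 0.94 in untreated libraries, and 0.93 without the 2 libraries farthest from the median. Ptges also passed with intercalated cell (r = 0.81) and parietal cell markers (0.65). It ran against endothelial (-0.68) and platelet markers (-0.64), which passed too. With rho, its relations with parietal cell (adjusted permutation p = 0.0711) and platelet markers (0.0802) did not pass.

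Ptger3 followed the thick ascending limb markers (r = 0.94, rho = 0.93; 0.95 in RAAS-blocked and 0.95 in untreated libraries; 0.92 without the 2 farthest), also at an adjusted permutation p of 0.000293. Ptgds followed the intercalated cell markers (r = 0.90, rho = 0.85; 0.85 in RAAS-blocked and 0.95 in untreated libraries; 0.83 without the 2 farthest) and those of the thick ascending limb (r = 0.84, rho = 0.77; 0.77 without the 2 farthest). Tbxas1 followed the macrophage markers (r = 0.90, rho = 0.81; 0.92 in RAAS-blocked and 0.97 in untreated libraries; 0.77 without the 2 farthest). Untreated replicate 3, the library of highest Tbxas1, also had the highest summed level of the 6 macrophage markers, 2035 FPKM, against 117 FPKM in the lowest untreated library. Ptger3 also passed with distal convoluted tubule (r = 0.81), proximal tubule (0.77) and intercalated cell markers (0.72). Ptgds also passed with collecting duct (r = 0.72), parietal cell (0.65) and proximal tubule markers (0.64), and ran against platelet markers (-0.70), which passed too. With rho, its relation with proximal tubule markers did not pass (adjusted permutation p = 0.0715).

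The positive relations that passed were with mesangial markers for Ptger4, platelet and endothelial markers for Ptgis, and endothelial markers for Ptgs1. None of the 13 relations of Ptger1, the gene of highest level, passed. Ptger4 followed the mesangial markers (r = 0.78, rho = 0.73; 0.91 in RAAS-blocked and 0.65 in untreated libraries; 0.75 without the 2 farthest; adjusted permutation p = 0.00746). Ptgis followed platelet markers (r = 0.73, rho = 0.72, adjusted permutation p = 0.0115). That r was 0.47 in RAAS-blocked and 0.90 in untreated libraries, and 0.69 without the 2 farthest. Ptgis also followed endothelial markers (r = 0.65, rho = 0.71, adjusted permutation p = 0.0386), with 0.63 without the 2 farthest. It ran against intercalated cell markers (r = -0.64, rho = -0.77, adjusted permutation p = 0.0406), with -0.71 without the 2 farthest. Ptgs1 followed endothelial markers (r = 0.69, rho = 0.59; 0.53 without the 2 farthest; adjusted permutation p = 0.0208), but not with rho (adjusted permutation p = 0.0888). Ptgs1 ran against the podocyte markers (r = -0.78, rho = -0.52; -0.93 in RAAS-blocked and -0.79 in untreated libraries; -0.44 without the 2 farthest), and with rho its adjusted permutation p was 0.156. None of the 13 relations of Ptgs2 passed; the nearest was smooth muscle (r = 0.59, rho = 0.57, adjusted permutation p = 0.0805; 0.19 without the 2 farthest). With the thick ascending limb markers, Ptgs2 had r = -0.47 (rho = -0.38, adjusted permutation p = 0.214), with -0.04 in RAAS-blocked and -0.79 in untreated libraries. In untreated libraries the other tubule lists also ran against Ptgs2. Their r was -0.93 (intercalated cell), -0.82 (collecting duct), -0.71 (proximal tubule) and -0.50 (distal convoluted tubule). In RAAS-blocked libraries it was 0.39, 0.34, -0.0014 and -0.10.

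**Figure D4:**
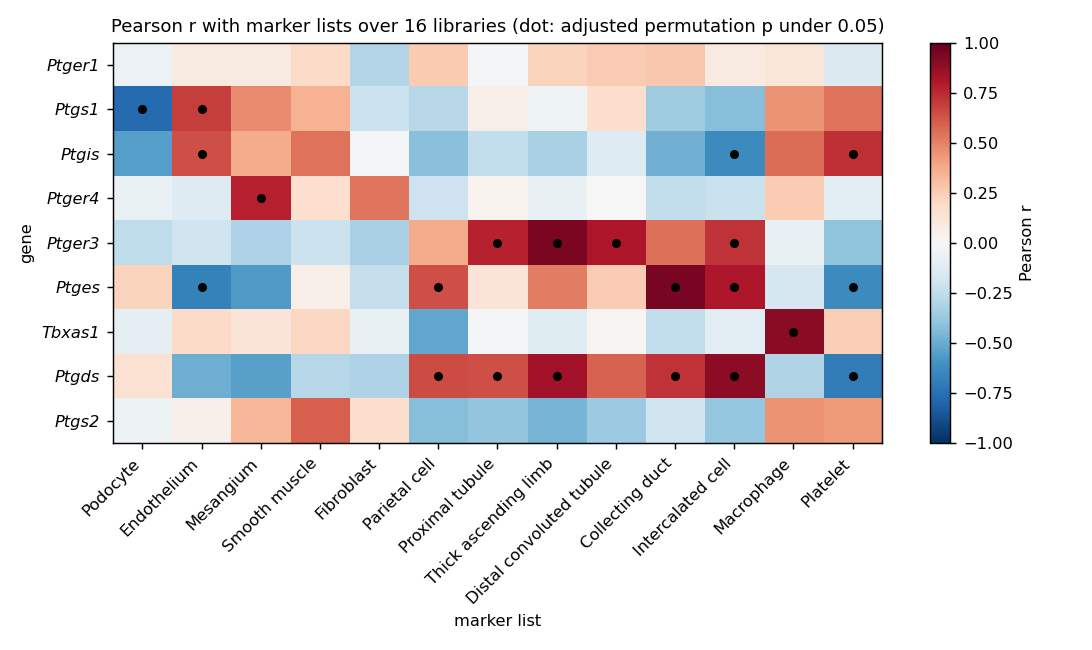
Pearson r of each gene with the mean level of each marker list over 16 libraries, from blue (negative) to red (positive), with a dot where the adjusted permutation p was under 0.05. Ptges with collecting duct (0.95), Ptger3 with thick ascending limb (0.94) and Tbxas1 with macrophages (0.90) are the deepest red, and the Ptgs2 row holds no dot.

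Among the 9 genes themselves, 72 pairwise relations were read inside the groups and 2 passed, both in untreated libraries. Ptgds and Ptger3 had r = 0.93 (rho = 0.90, exact permutation adjusted p = 0.0312; 0.75 without the 2 farthest). Ptgs2 and Ptgds ran in opposite directions, with r = -0.90 (rho = -0.93, exact permutation adjusted p = 0.0454; -0.84 without the 2 farthest). With rho neither passed after adjustment (0.073 and 0.054).

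The genes whose group-centred values over the 16 libraries were most like those of Ptgs2, of 13285, were Nfkbid (r = 0.94), a nuclear IκB family member, Il1b (0.94), the cytokine interleukin-1 beta, Kcnh2 (0.92), a potassium channel, Dusp5 (0.92), a phosphatase of ERK kinases, and Adam8 (0.91), a metalloprotease of leukocytes. All 5 were highest in RAAS-blocked replicate 0 and untreated replicate 0, as Ptgs2 was. Il1b was at 6.43, 30.4 and 289 FPKM in RAAS-blocked libraries, against 5.90, 12.4 and 180 FPKM in untreated libraries. Most opposed to Ptgs2 were Tcfcp2 (-0.88), Kif3a (-0.87) and Pigh (-0.87). Ren1 ranked 530 (r = 0.68) and Slc12a1 ranked 11469 (r = -0.44).

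Markers of neutrophils and immediate early genes were then read, as lists chosen after these values were seen and so given with no test. Of 10 neutrophil genes 7 passed the filter. The neutrophil chemokine receptor Cxcr2 ranked 6 (r = 0.90) in likeness to Ptgs2, and S100a9, a calcium-binding protein abundant in neutrophils, ranked 20 (r = 0.89), while the lowest of the 7, the lactoferrin gene Ltf, ranked 1726 (r = 0.51). The summed level of the list ran from 69.0 to 2407 FPKM in RAAS-blocked libraries and from 29.5 to 885 FPKM in untreated libraries, highest in replicate 0 of each group. The neutrophil markers Ly6g and Camp were at 0 in some libraries of both groups and at most at 6.07 and 2.07 FPKM.

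The mean level of the neutrophil list had r with Ptgs2 of 0.84 in RAAS-blocked and 0.94 in untreated libraries, and with Ren1 of 0.38 and 0.57. The immediate early list, of which 10 of 12 genes passed the filter, had r with Ptgs2 of 0.92 in RAAS-blocked and 0.85 in untreated libraries. Its genes ranked from 14 (Junb, r = 0.89) to 2361 (Ier3, r = 0.44) in likeness to Ptgs2. The fit with group and log2 Ren1 as terms was also run with neutrophil level as a further term. That fit called 555 of 13285 genes. Ptgs2 was not among them, but it was not called without the neutrophil term either (limma adjusted p = 0.0661). The neutrophil list was chosen after the genes most like Ptgs2 were seen. A fit with its level as a term therefore cannot decide whether Ptgs2 follows Ren1 apart from neutrophils. The part of neutrophil content in the relation of Ptgs2 to Ren1 inside each group was not tested.

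**Figure D5:**
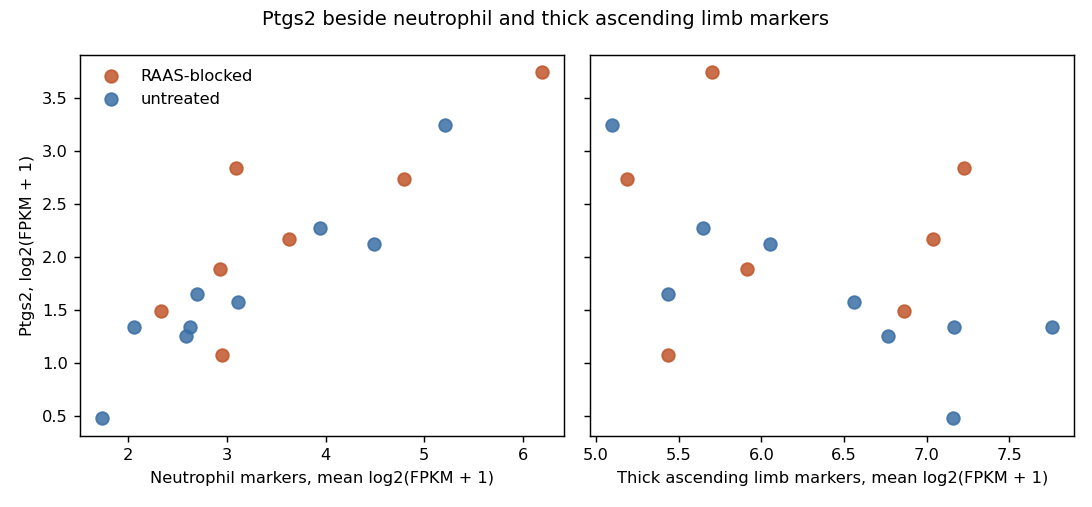
Ptgs2 as log2(FPKM + 1) against the mean log2(FPKM + 1) of neutrophil markers (left) and of thick ascending limb markers (right), 1 point per library, RAAS-blocked and untreated. In RAAS-blocked and untreated libraries r is 0.84 and 0.94 on the left, and -0.04 and -0.79 on the right. Over all 16 libraries it is 0.89 on the left and -0.47 on the right.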

How the data were processed

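Glomerular RNA of 7 RAAS-blocked and 9 untreated libraries was read from the deposited table of FPKM, 1 column per library, made by the authors; the labels' protocols name the TruSeq mRNA kit, while Cuffdiff 2.2.1, Cufflinks, TopHat2 2.0.8, FastQC and CASAVA 1.8.2 are listed, without roles, per the submitters' processing notes. Build, annotation and strand use were not given in the sources. The labels do not say sample by sample that libraries are separate mice, so p-values measure the spread between libraries. FPKM depends on all other transcripts counted, and a value listed at 0 can be a failed estimate.

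The 13286 genes that reached 1 FPKM in 7 or more libraries were tested as log2(FPKM + 1) with limma 3.58.1 in R 4.3.3, with trended, robust variance and Benjamini-Hochberg adjustment at 0.05. A second model added the log2 level of Ren1. Correlations used exact permutation inside groups and 100000 resamples over 16 libraries (scipy 1.17.1). Functions were tested on simulated data. Replicate numbers 0 to 6 occur in both groups, but no label ties them to shared mice or days, and no block was used. Alternatives were a pseudocount of 0.1, no filter, upper-quartile and quantile scaling, array weights, a rank test, marker covariates, a replicate block and leaving out each library; the neutrophil covariate was added after the data were seen. The genes, lists and named pathway genes (the 6 with the lowest p) were chosen with earlier results of these data known; the genes named as like Ptgs2 are the 5 of highest and 3 of lowest r, leaving out unnamed symbols and small RNAs.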

Additional observations from a re-analysis of the deposited data

Results flagged for a closer look

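Of 36 sets of values of a named gene in a group, 6 had a library that lay far from the rest, where chance gives about 1 in 20. In RAAS-blocked replicate 4, Ren1 was at 33.5 FPKM (443 to 1584 FPKM in the other 6), Akr1b7 at 2.70 FPKM (18.6 to 31.0) and Ptger1 at 23.2 FPKM (34.2 to 43.3). This library also had the fewest symbols above 0, 16919. In RAAS-blocked replicate 6, Ptgs1 was at 18.3 FPKM, against 28.1 to 36.7 FPKM in the other 6. In untreated replicate 3, Tbxas1 was at 21.5 FPKM (1.93 to 5.54 in the other 8) and Ptgir at 7.74 FPKM (1.42 to 2.72), in the library with the highest macrophage marker level of all 16.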

How the results depend on the processing

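The counts of called genes between the groups, among the 9 and among the other prostanoid genes, were 0 under every alternative run, including each library left out. With Ren1 as a term, 1 of the 9 was called with a pseudocount of 0.1 (Ptgs2) and with the thick ascending limb covariate (Ptgs2), and 0 to 1 when each library was left out (Ptgs2 without untreated replicate 0, Ptger1 without untreated replicate 3, where 1.9% and 1.93% of all genes were called). For Ptgs2 with Ren1, a pseudocount of 0.1 gave r = 0.757 (exact permutation p = 0.0321) in RAAS-blocked and 0.712 (p = 0.0344) in untreated libraries; leaving out each library gave 0.616 to 0.816 and 0.392 to 0.822, linear FPKM gave 0.615 (exact permutation p = 0.129) and 0.292 (p = 0.254), and 0 of the 18 relations passed adjustment at that pseudocount. Of pairs among the 9, 1 passed with a pseudocount of 0.1. Signs of differences that were not called turned with array weights for Ptges (0.107), Ptgis (-0.0368), Ptger3 (0.0441) and Tbxas1 (0.0293), with the thick ascending limb covariate for Ptges (0.0540), and with the neutrophil covariate for Ptges (0.0503) and Ptgis (-0.0367). Leaving out each library gave -0.196 to 0.0198 for Ptgs1, -0.200 to 0.163 for Ptges, -0.106 to 0.224 for Ptgis, -0.426 to -0.00677 for Ptger3, -0.209 to -0.0633 for Ptger1 and -0.330 to 0.0670 for Tbxas1. The cause was not tested.

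The deviations of same-numbered libraries had r of -0.28 to 0.43, over 0.1 for 4 of the 7 numbers, and 1 of 7 RAAS-blocked and 2 of 7 untreated libraries correlated best with their own number, so the numbers were not taken as pairs. With the replicate block 1 gene and 0 of the 9 were called, as in the same libraries with no block; Ptges was then at 0.0515, as in the same 14 libraries with no replicate block. Unknown depth limits what can be said of low genes such as Ptgs2 and Ptger2.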
